A study of Mus musculus with 18 samples.

Results

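The 38 genes described here encode the machinery that makes ribosomes: small nucleolar ribonucleoprotein (snoRNP) subunits, abundant nucleolar proteins, RNA polymerase I with its factors, and assembly factors of both ribosomal subunits. Members were chosen by symbol, as the gene rows whose Ensembl identifiers belong to a list of 38 names in GENCODE M21, and all 38 were found among 55536 gene rows with an Ensembl identifier. The rule itself uses no measured value, but the members and lists were chosen with earlier results of these data known. The series holds 18 RNA sequencing libraries of CD8+ T cells, taken from the spleen and the lymph nodes of mice. All 18 carry the genotype label OT-I, a line with a transgenic T cell receptor for the ovalbumin peptide SIINFEKL, and the label holds for the controls too. The naive group (8 libraries) is from day 0. The control group (8 libraries) received a scrambled sequence, the Tra2bKO group (2 libraries) lacks the splicing regulator gene Tra2b by its label, and both were taken at day 4 after SIINFEKL with anti-OX40/anti-41BB as costimulation. Neither the age of the mice, nor the way Tra2b was targeted, nor the number of animals behind a library is given in the sources used here, so the p-values reflect the spread among libraries of a group, and that spread may be technical.

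Ribosome production begins in the nucleolus, where RNA polymerase I copies the ribosomal DNA into a long precursor. Box C/D snoRNPs methylate this precursor and box H/ACA snoRNPs convert some of its uridines to pseudouridine, while a large processome cleaves and folds the part destined for the small subunit. Other factors, among them the complex of Pes1, Bop1 and Wdr12, mature the large subunit. T cells that have met their antigen enlarge and divide quickly, and the transcription factor MYC, which binds E-box sequences such as CACGTG with its partner MAX, is known to drive many of these genes.

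Promoter sequence is shown for the genes that carry this E-box, since the 38 genes largely moved together and MYC is a known regulator of the family. Of the 38 genes, 33 had a promoter in the RefSeq table of build GRCm38.p6 (250 bases before to 50 bases after the start), and Npm1, Bop1, Fbl, Rrp12 and Tcof1 had no entry. CACGTG reads alike on both strands. It lay in a promoter of 6 of the 33 genes (18.2%), against 2187 of 27025 genes in the whole table (8.09%). A gene was counted if any of its listed promoters held it, and the 33 genes had 41 promoters. The windows of Nop2, Pes1, Rrn3 and Wdr43 are printed because the E-box lies close to or before their starts. CACGTG is in capitals, with up to 40 flanking bases on each side. The distal Rrn3 window ends at the promoter's edge, and those of Pes1 and Wdr43 were cut short past the start. Utp20 and Mybbp1a held it farther past the start and are named only. The lines give the plus strand, on which all 4 printed genes lie.
Nop2, chr6:125131783-125131868: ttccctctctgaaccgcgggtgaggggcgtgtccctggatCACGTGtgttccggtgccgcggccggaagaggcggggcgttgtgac
Pes1, chr11:3963937-3963999: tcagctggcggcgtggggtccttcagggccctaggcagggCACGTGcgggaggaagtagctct
Rrn3, distal, chr16:13780449-13780529: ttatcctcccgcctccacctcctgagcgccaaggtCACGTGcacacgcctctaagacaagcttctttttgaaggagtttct
Rrn3, proximal, chr16:13780611-13780696: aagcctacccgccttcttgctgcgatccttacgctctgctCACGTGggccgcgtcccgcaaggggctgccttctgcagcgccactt
Wdr43, chr17:71616192-71616239: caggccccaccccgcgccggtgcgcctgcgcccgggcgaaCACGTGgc
The E-box begins 60 bases before the start of Nop2, 215 and 48 bases before that of Rrn3, and within the first bases of the transcript in Pes1 and Wdr43. A match describes these letters and does not show that a factor binds there.

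Total counts ran from 68249844 to 93972513 per library. The markers of CD8 T cells (Cd8a, Cd8b1, Cd3d, Cd3e, Cd3g and Trac) were found in every library, with summed levels of 5357 to 6432 CPM (counts scaled to library size) in naive, 3448 to 4279 in control and 3423 to 3932 in Tra2bKO libraries. Trbv12-1, the receptor segment of the OT-I beta chain, took 5.95 to 12.4% of beta variable segment counts in naive libraries against 99.6 to 99.8% in controls and 99.4 to 99.7% in Tra2bKO libraries, so the naive libraries go against the receptor that their genotype label implies. Every difference from naive therefore mixes day, stimulation, the scrambled sequence or Tra2b targeting, and receptor make-up, which cannot be told apart. Tra2b itself stood at 466 ± 60.1 CPM in controls (SD, n = 8) and at 361 and 370 CPM in the libraries labelled Tra2bKO, a log2 difference of -0.34 (SE 0.13) that missed the threshold (edgeR quasi-likelihood test, adjusted p = 0.0899). In bulk libraries, fewer cells of a type and less RNA per cell cannot be told apart.

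Levels between genes were compared per length, in TPM, a unit corrected for transcript length and library size and computed from the estimated transcript counts. Npm1, a nucleolar chaperone, was highest of the 38 at 1140 ± 165 TPM in controls (SD, n = 8). Nucleolin (Ncl) followed at 427 ± 82.1 TPM, then Nhp2 at 396 ± 42.5 and Nop56 at 342 ± 20.2. The spreads of Ncl, Nhp2 and Nop56 touch, so the order among these neighbours is not fixed by the data. At the low end, Polr1a, the largest subunit of RNA polymerase I, stood at 9.24 ± 0.995 TPM and the processome protein Utp20 at 7.02 ± 1.21 TPM in controls. Copies limit some levels: Npm1 has 7 near-identical pseudogenes in the annotation, Ddx18 has 3 and Nop56 has 4. Fbl shares 690 of its 1197 bases, at 99.565% identity, with the protein-coding gene Tulp4. Tulp4 held a mean of 2218 counts against 13887 for Fbl. How reads were divided between such copies is not given in the sources used here.

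**Figure D1:**
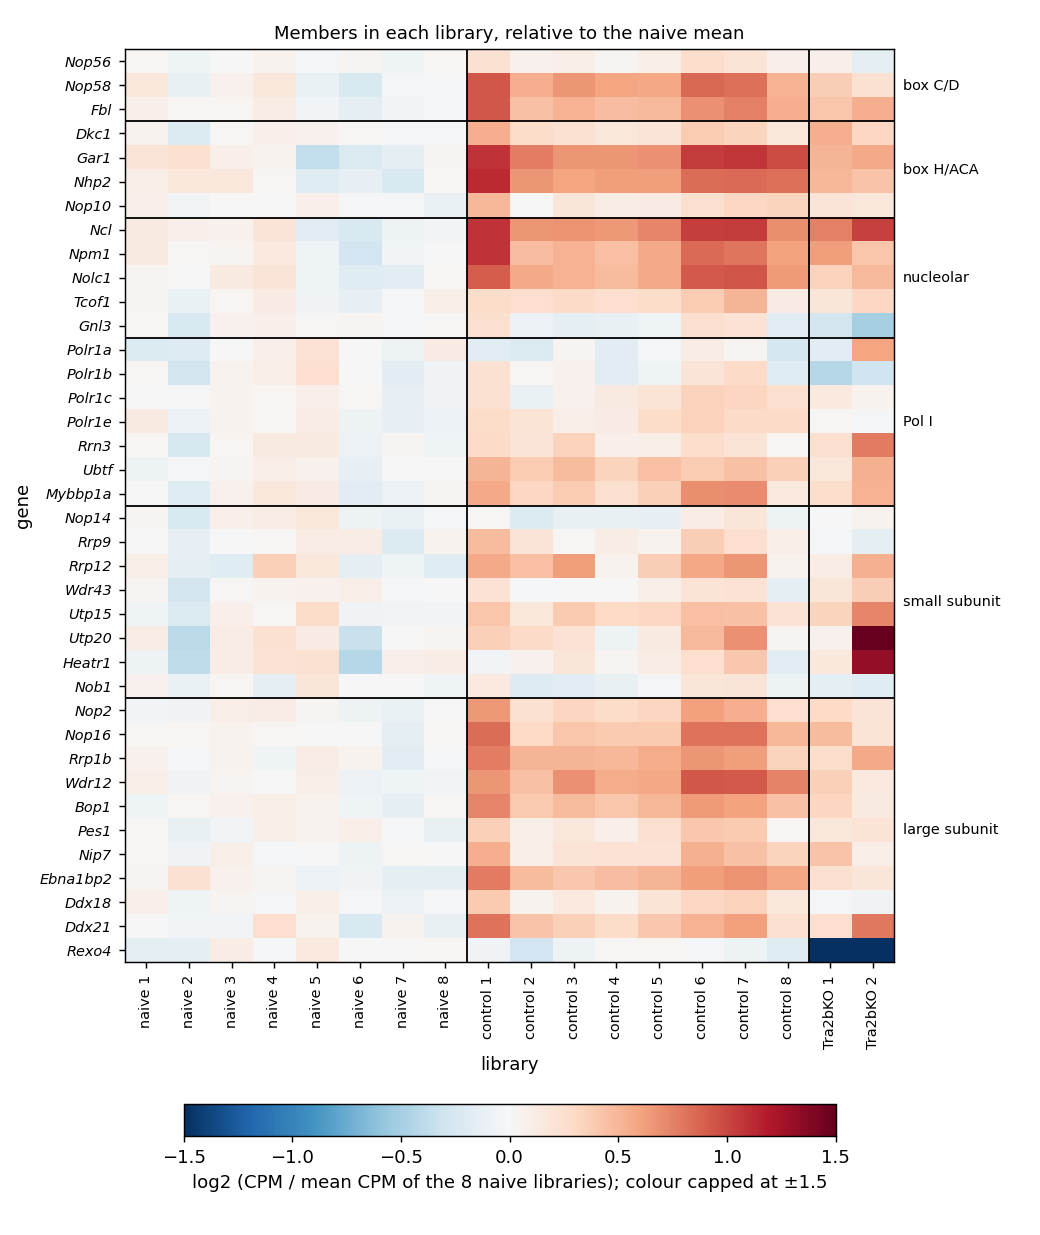
Each row is 1 of the 38 genes, ordered by role, and each column is 1 of the 18 libraries; colour gives the log2 ratio of its CPM to its mean over the 8 naive libraries, capped at 1.5 in either direction. Control columns are warmer for most rows, and the Rexo4 row is cold in the 2 Tra2bKO columns, at 30.7 and 22.7 CPM.

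The first comparison asks how these genes differed between stimulated control cells at day 4 and naive cells at day 0. Of the 38 genes, 30 were higher in controls and 0 were lower (edgeR quasi-likelihood test, adjusted p under 0.05 over all 17078 genes tested). Over all genes tested 32.5% were called higher and 39% lower, 71.5% in either direction. Among 7630 abundant genes, those with a mean log2 CPM over 4, the shares were 46.9% and 33.3%. The 38 genes had a median log2 fold change of 0.32, with a range from -0.08 to 0.88, against -0.08 over all genes and 0.11 over abundant genes. At an unadjusted p under 0.05, 0 members were lower too, and DESeq2 and limma voom also called 0 lower. Scaled by total counts alone, 25 were higher and 2 were lower, Polr1a and Rexo4, at -0.17 each, and the calls of Nop56, Polr1c, Rrn3, Rrp9 and Utp20 were lost.

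**Figure D2:**
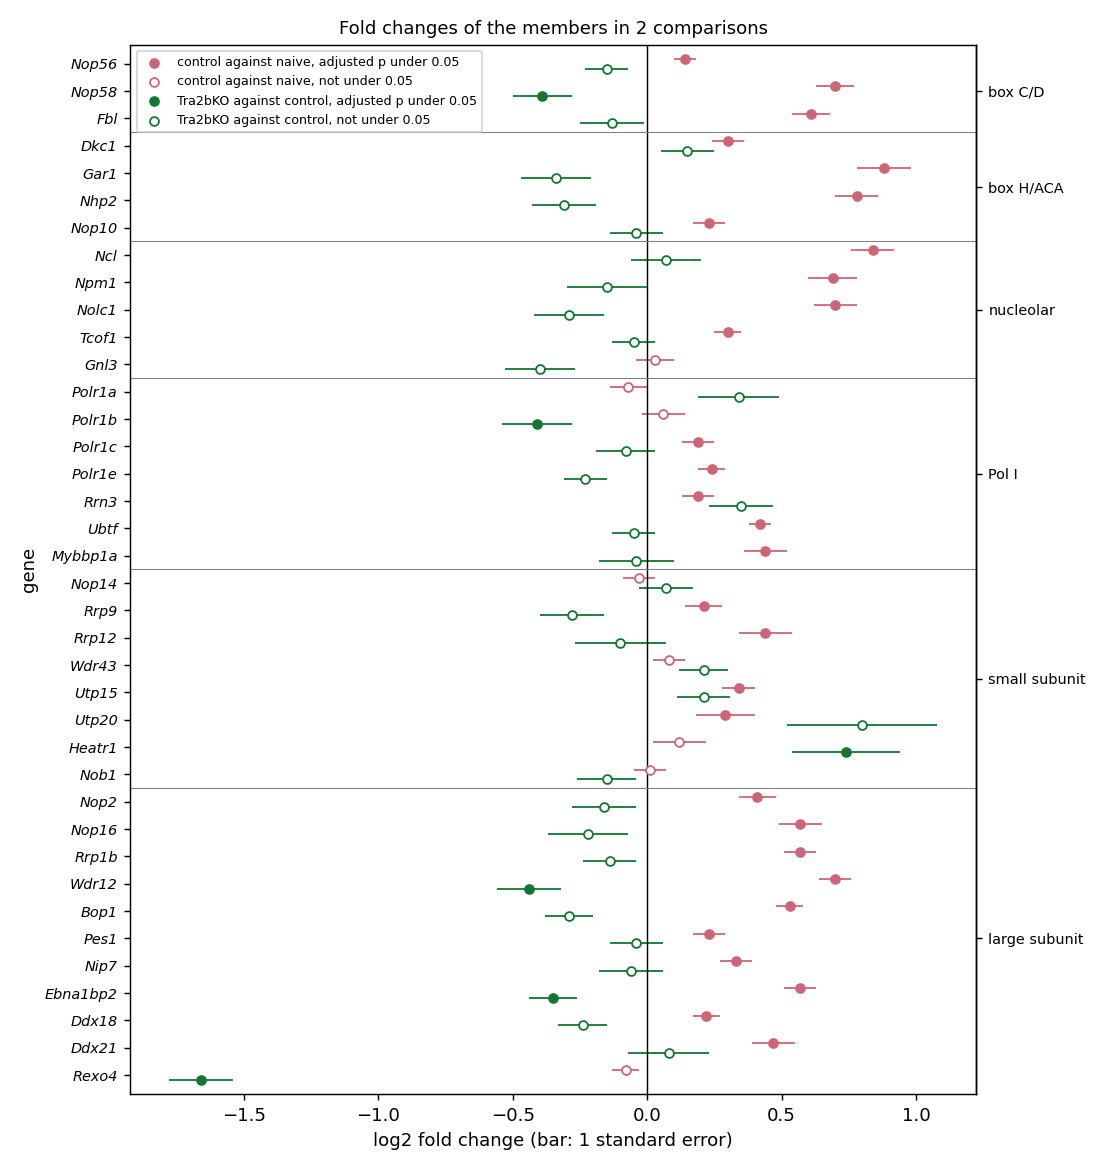
Points are log2 fold changes of the 38 genes, grouped by role, for control against naive and for Tra2bKO against control; bars are 1 standard error and filled points passed an adjusted p of 0.05. The 30 filled points of the first comparison lie between 0.14 and 0.88, and Rexo4 lies alone at -1.66 in the second.

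All 3 box C/D proteins were higher in controls. Nop58, a core protein of these particles, ran from 162 to 214 CPM in naive libraries (median 188) and from 273 to 363 CPM in controls (median 293), without overlap. Its log2 fold change was 0.70 (SE 0.07, adjusted p = 9.94e-08). Fibrillarin (Fbl), the methyltransferase of the particle, rose from 123 to 146 CPM in naive libraries (median 135) to 184 to 257 CPM in controls (median 196), 0.61 on the log2 scale (SE 0.07, adjusted p = 1.84e-07). Nop56, the partner of Nop58 in the same particle, differed much less: 342 to 369 CPM in naive libraries (median 360) and 366 to 427 in controls (median 379). The ranges of Nop56 overlapped slightly and its log2 fold change was 0.14 (SE 0.04, adjusted p = 0.00666). The difference between these partners was not tested.

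All 4 box H/ACA proteins were higher as well, and by unequal amounts. Gar1, a core protein of the particle, had the largest log2 fold change of the 38 genes at 0.88 (SE 0.10, adjusted p = 2.4e-07). It ran from 35.4 to 54 CPM in naive libraries (median 47.1) and from 72.2 to 96.8 CPM in controls (median 83.5), so every control lay above every naive library. Nhp2, another core protein, rose from 115 to 152 CPM (median 137) to 204 to 292 CPM (median 226), a log2 fold change of 0.78 (SE 0.08). Dkc1, the pseudouridine synthase itself, was 192 to 232 CPM in naive libraries (median 224) and 247 to 322 CPM in controls (median 263). Its fold change of 0.30 on the log2 scale (SE 0.06, adjusted p = 0.000119) stands beside the larger values of Gar1 and Nhp2, and the differences between partners were not tested. Nop10, the remaining partner, had a log2 fold change of 0.23 (SE 0.06) with overlapping ranges, 153 to 173 CPM against 164 to 231. With the length trend removed its value was 0.03 (adjusted p = 0.558), and with length and GC removed -0.04 (adjusted p = 0.499).

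Among the 5 abundant nucleolar proteins, 4 were higher in controls. Nucleolin, which binds the precursor RNA, ran from 681 to 914 CPM in naive libraries (median 803) and from 1258 to 1695 CPM in controls (median 1309). The groups did not overlap, and the log2 fold change was 0.84 (SE 0.08, adjusted p = 6.41e-08). Npm1 rose from 500 to 679 CPM (median 618) to 838 to 1300 CPM (median 920), 0.69 on the log2 scale (SE 0.09, adjusted p = 1.8e-06). Nolc1, a chaperone of snoRNPs, had a log2 fold change of 0.70 (SE 0.08) and also showed no overlap, 152 to 197 CPM against 239 to 333. Tcof1, or treacle, which acts in ribosomal DNA transcription, had a log2 fold change of 0.30 (SE 0.05). Gnl3 (nucleostemin), a nucleolar GTPase of proliferating cells, was the exception, at 107 ± 6.68 CPM in naive libraries and 109 ± 14.4 CPM in controls (SD, n = 8 each; log2 fold change 0.03, SE 0.07, adjusted p = 0.73).

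Of the 7 genes of RNA polymerase I and its factors, 5 were higher. Neither of the genes for the catalytic core passed the test. Polr1a ran from 44.4 to 59.2 CPM in naive libraries (median 51.1) and from 42.9 to 55.2 CPM in controls (median 48), a difference of -0.07 on the log2 scale (SE 0.07, adjusted p = 0.36), which turned to 0.20 (adjusted p = 0.01) once a trend on exon length was removed. Polr1b, the other large subunit, stood at 67.6 ± 7.48 and 70.3 ± 8.72 CPM (SD, n = 8 each; adjusted p = 0.527). Among smaller subunits, Polr1c, shared with RNA polymerase III, had a log2 fold change of 0.19 (SE 0.06) and Polr1e one of 0.24 (SE 0.05). The initiation factor Rrn3 rose by 0.19 on the log2 scale (SE 0.06, adjusted p = 0.00646), and by 0.09 (adjusted p = 0.142) when scaled by total counts. The call of Polr1c was also lost with the length trend removed (0.12, adjusted p = 0.0575) and against controls 1 and 2 only (0.12, adjusted p = 0.31). In TPM, Rrn3 stood at 31.1 ± 2.24 in naive libraries and 30.2 ± 2.43 in controls, and Polr1e at 33.2 ± 1.75 and 32.8 ± 2.03 (SD, n = 8 each). Ubtf, the factor that binds ribosomal DNA and recruits the polymerase machinery, rose without overlap from 148 to 172 CPM (median 161) to 203 to 229 CPM (median 214). Its log2 fold change was 0.42 (SE 0.04, adjusted p = 1.88e-08). Mybbp1a, a nucleolar partner of the polymerase, had a log2 fold change of 0.44 (SE 0.08).

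Small subunit factors were split, with 4 of 8 higher. Rrp12 (log2 fold change 0.44, SE 0.10), the processome members Utp15 (0.34, SE 0.06) and Utp20 (0.29, SE 0.11), and Rrp9 (0.21, SE 0.07) passed the test. Utp20 was at an adjusted p of 0.0255, and of 0.0509 without naive library 2. Nop14, Wdr43, Heatr1 and Nob1, the nuclease of the last cleavage of small subunit RNA, did not pass, with log2 fold changes between -0.03 and 0.12. With the length trend removed, Heatr1 (0.23, adjusted p = 0.0273) and Wdr43 (0.15, adjusted p = 0.0303) passed. Of the large subunit factors, 10 of 11 were higher. The 3 genes of the Pes1, Bop1 and Wdr12 complex were all called, but Wdr12 had a log2 fold change of 0.70 (SE 0.06), Bop1 one of 0.53 (SE 0.05) and Pes1 one of 0.23 (SE 0.06). Wdr12 ran from 62.4 to 71.2 CPM in naive libraries (median 65.8) and from 90.5 to 127 CPM in controls (median 106), with no overlap. Ebna1bp2, Nop16 and Rrp1b each had a log2 fold change of 0.57, the RNA helicase Ddx21 one of 0.47, the rRNA methyltransferase Nop2 one of 0.41 and Nip7 one of 0.33. The helicase Ddx18 was at 0.22 (SE 0.05). Rexo4, a putative RNA exonuclease, was the large subunit gene that did not pass, at 89.4 ± 6.29 CPM in naive libraries and 84.8 ± 5.99 CPM in controls (SD, n = 8 each; adjusted p = 0.182).

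Counted by ranges, 16 of the 38 genes had every control above every naive library, against 16.6% of all genes measured and 33.6% of abundant genes. They were Nop58, Fbl, Dkc1, Gar1, Nhp2, Ncl, Npm1, Nolc1, Ubtf, Nop2, Nop16, Rrp1b, Wdr12, Bop1, Nip7 and Ebna1bp2. The reverse, every control below every naive library, held for 0 members and for 18.8% of all genes.

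Myc did not move with them. It stood at 162 ± 18.4 CPM in naive libraries and 114 ± 12.9 CPM in controls (SD, n = 8 each), -0.51 on the log2 scale (SE 0.08, adjusted p = 1.01e-05), and its partner Max differed by -0.05 (SE 0.08, adjusted p = 0.567). Mki67, a marker of dividing cells chosen after its values were seen, went from 145 ± 37.4 to 383 ± 26.3 CPM. Among a list of 124 other ribosome biogenesis genes, 83 of 123 tested were higher in controls and 12 were lower, with a median log2 fold change of 0.24. All 9 snoRNP assembly factors were higher, among them Znhit3 at 0.85 (SE 0.06). Of the exosome, the RNA-trimming complex, 9 of 13 genes were higher and 1 lower, with Exosc3 at 0.74 (SE 0.05) and its cofactor C1d at 0.61 (SE 0.05). Further small subunit factors were higher in 34 of 45 cases and lower in 2, with Tbl3 at 0.57 (SE 0.04). Further large subunit factors were higher in 27 of 47 cases and lower in 5, among the latter Mdn1 at -0.88 (SE 0.10) and Nop53 at -0.61 (SE 0.06). Further genes of RNA polymerase I divided evenly, with 4 of 9 higher and 4 lower. The lower ones included Taf1c (-0.65, SE 0.08) and Taf1a (-0.60, SE 0.08), subunits of the promoter selectivity factor.

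Markers of other cells moved with the same groups. Summed levels of 9 B cell markers were 691 to 1124 CPM in naive and 377 to 464 CPM in control libraries, and those of 10 dendritic and myeloid markers were 103 to 194 and 35.4 to 63.5 CPM, with 9 of 9 tested lower in controls. The 6 NK cell markers summed to 38.4 to 73.5 against 3.36 to 12.3 CPM, and all 6 were lower in controls. The 3 CD4 T cell markers summed to 2.71 to 4.82 against 1.39 to 9.92 CPM, and the 5 erythroid markers to 2.02 to 40.8 against 0.443 to 17.3 CPM. H2-Ab1, a class II antigen presentation gene, was 298 to 911 CPM in naive libraries and 14.3 to 65.2 CPM in controls. The part of these other cells in the differences above was not tested.

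**Figure D3:**
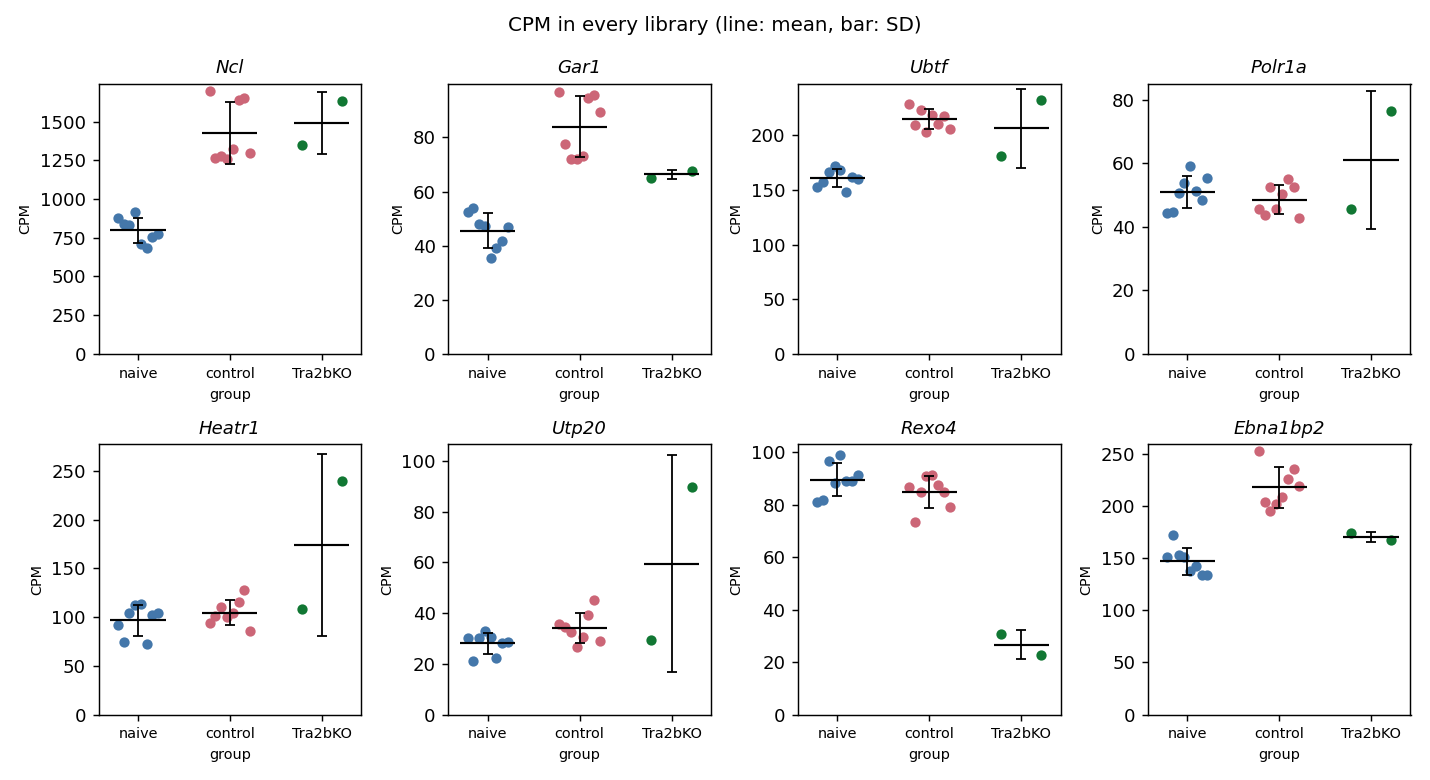
Points are the CPM of selected members in each of the 18 libraries, by group, with the mean as a line and the SD as a bar. Nucleolin (Ncl), Gar1 and Ubtf separate naive from control libraries, Rexo4 is low in both Tra2bKO libraries, and Heatr1 reaches 240 CPM in the library Tra2bKO 2 alone.

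Within the controls, and by smaller amounts within the naive libraries, the 38 genes tended to be high or low together by library. Controls 1, 6 and 7 had 34, 37 and 38 of the 38 genes above their control mean, while control 2 had 3, control 3 had 7, control 4 had 1, control 5 had 7 and control 8 had 8. Of abundant genes, between 40.1 and 53.9% lay above the control mean in each of these libraries. The summed level of the 38 genes was 9275 CPM in control 1, 8862 in control 6 and 8892 in control 7, against 7211 to 7565 CPM in the other 5 controls. Naive libraries summed to 5326 to 6199 CPM, below every control, and the Tra2bKO libraries to 7298 and 7783 CPM. In naive 1, 3, 4 and 5, 29, 33, 33 and 28 of the 38 genes lay above their naive mean. Naive 2, 6, 7 and 8 had 8, 11, 7 and 16, with 36.3 to 57.8% of abundant genes above the mean across naive libraries. Median log2 deviations of the 38 genes ran from -0.08 to 0.08 in naive libraries and from -0.13 to 0.18 in controls. The labels give no batch, day or animal that sets controls 1, 6 and 7 apart, and this split was seen in the values and enters no test. As a measure of the spread, the median coefficient of variation of the 38 genes was 11.2% in controls and 7.29% in naive libraries, while that of abundant genes was 8.88% and 9.66%. Ubtf varied least in controls (4.2%) and Utp20 most (17.4%).

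**Figure D4:**
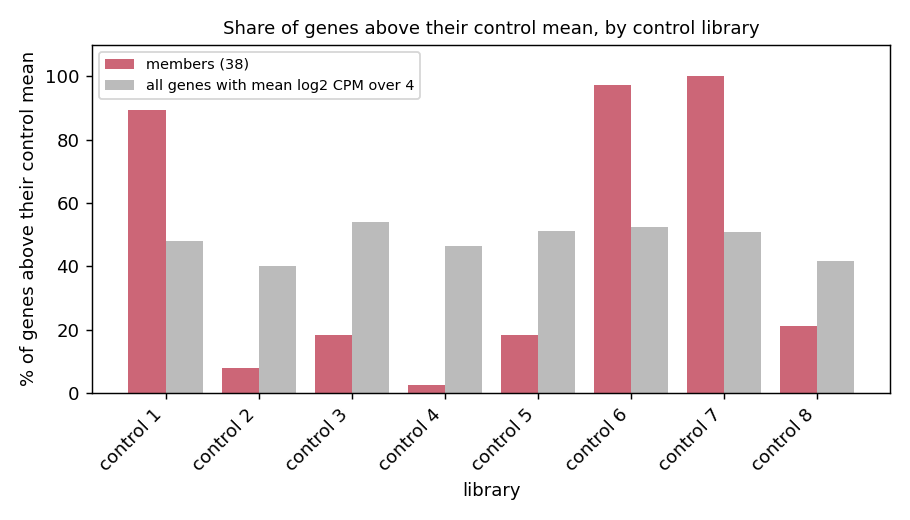
Bars give, for each of the 8 control libraries, the percentage of the 38 genes (red) and of all abundant genes (grey) above their mean over the controls. Red bars stand at 89.5, 97.4 and 100% in controls 1, 6 and 7 and at 21.1% or less in the other 5.

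The next comparison sets the 2 libraries labelled Tra2bKO against the 8 controls of the same day. Of the 38 genes, 6 passed the test (adjusted p under 0.05 over 18651 genes): 1 was higher and 5 were lower. Over all genes tested 7.62% were called higher and 7.24% lower, 14.9% in either direction, and among abundant genes 11.3% and 11.5%, so the share of members called is near the background. The median log2 fold change of the 38 genes was -0.13, against -0.01 over all genes, and 28 of the 38 had a negative sign. In Tra2bKO 1 and 2, 15.8 and 39.5% of the 38 genes lay above their control mean, against 44.2 and 45.3% of abundant genes. The 38 genes tended to move together by library, so their signs are not separate pieces of evidence. Their summed levels, 7298 and 7783 CPM, lay below controls 1, 6 and 7 (8862 to 9275 CPM). The other controls summed to 7211 to 7565 CPM.

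Rexo4 stood apart. Its gene (ENSMUSG00000052406.14) is at chr2:26953563-26964386 in GRCm38, minus strand. Controls held 86.5, 73.5, 84.8, 90.8, 91.4, 87.6, 84.8 and 79 CPM, and naive libraries 81 to 99 CPM (median 89). The Tra2bKO libraries held 30.7 and 22.7 CPM, both far below every library of the other groups. The log2 fold change was -1.66 (SE 0.12), a 3.16-fold lower level (edgeR quasi-likelihood test, adjusted p = 2.32e-05). It passed in all 10 fits that left out 1 library (-1.91 to -1.45), but not against controls 1 and 2 alone (-1.57, adjusted p = 0.0884). The longer of its 2 coding transcripts held 59 ± 4.27% of its counts in controls (SD, n = 8). In Tra2bKO libraries it held 50.7 ± 5.31% (SD, n = 2). These ranges did not overlap, at 56.1 to 68.7% against 46.9 to 54.5%, while naive libraries ran from 44.2 to 70.6%. The shorter one held 39.2 ± 4.33% in controls and 45.6 ± 5.21% in Tra2bKO libraries, with overlapping ranges (29.2 to 42.4% and 41.9 to 49.3%). The differences in these shares were not tested. A near-identical pseudogene of Rexo4, Gm14140, held a mean of 6 counts against 6410 for Rexo4.

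The other 4 lower genes differed by far less. Wdr12 was 90.5 to 127 CPM in controls (median 106) and 85.2 and 73.4 CPM in the Tra2bKO libraries, -0.44 on the log2 scale (SE 0.12, adjusted p = 0.0317). Nop58 was 273 to 363 CPM in controls (median 293) and 244 and 222 CPM in Tra2bKO libraries (-0.39, SE 0.11, adjusted p = 0.0333). Ebna1bp2, an assembly factor of the large subunit, was 195 to 253 CPM (median 214) and 174 and 167 CPM (-0.35, SE 0.09, adjusted p = 0.0274). In these genes both Tra2bKO libraries lay below every control, yet above every naive library for Wdr12 and Nop58. Polr1b was 59.5 to 82.4 CPM in controls (median 69.6) and 50.3 and 55.2 CPM in Tra2bKO libraries (-0.41, SE 0.13, adjusted p = 0.0478). Without Tra2bKO 2, log2 fold changes were -0.33 for Wdr12, -0.32 for Nop58, -0.31 for Ebna1bp2 and -0.47 for Polr1b. Without Tra2bKO 1 they were -0.47 for Nop58, -0.39 for Ebna1bp2 and -0.36 for Polr1b. Such fits leave 1 Tra2bKO library, and the number of genes called changes with it over all genes. The call of Nop58 was lost without control 7 (adjusted p = 0.0518) and that of Wdr12 without control 8 (adjusted p = 0.0535). That of Polr1b held in 2 of the 10 fits that left out 1 library, those without control 4 or control 8.

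Heatr1 was the gene called higher, and its rise came from 1 library. Heatr1 is a large protein of the small subunit processome. Controls ran from 85.9 to 128 CPM (median 102), Tra2bKO 1 was at 108 CPM, within that range, and Tra2bKO 2 was at 240 CPM. The log2 fold change was 0.74 (SE 0.20, adjusted p = 0.0311), and 0.06 (adjusted p = 0.889) without Tra2bKO 2. Without control 8 the call was lost (0.70, adjusted p = 0.0526), as it was once a trend on exon length was removed (0.53, adjusted p = 0.0562). Exons of Heatr1 share 155 bases with the opposite-strand gene Lgals8, and whether the counting used strand is not given in the sources used here. Utp20 and Polr1a showed the same contrast between the libraries without passing the test, at 29.4 and 89.8 CPM for Utp20 and 45.8 and 76.6 CPM for Polr1a.

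These 3 genes have long transcripts, and the 2 Tra2bKO libraries differed by transcript length over all genes. Among abundant genes, the median log2 ratio of Tra2bKO 2 to Tra2bKO 1 was -0.14 for 2488 genes with mean transcript lengths under 2 kb, -0.01 for 2 to 4 kb, 0.33 for 4 to 6 kb and 0.59 for 627 genes over 6 kb. The 38 genes gave -0.08, -0.04, 0.35 and 0.51 in the same classes, with 10, 16, 6 and 6 genes. Against the control mean, the medians over abundant genes were -0.21, -0.03, 0.30 and 0.56 for Tra2bKO 2 and -0.08, -0.02, -0.01 and 0.00 for Tra2bKO 1. Across the 38 genes, the log2 ratio and the log2 length had a Spearman rho of 0.56 and a Pearson r of 0.59, and across 7627 abundant genes 0.63 and 0.50. These correlations are across genes of the same 2 libraries and carry no p. Of the 6 members over 6 kb, Nop58 and Wdr12 had ratios of -0.13 and -0.22 and Ncl one of 0.27, below the median of their class. These 3 genes mix transcripts of unlike length: 9507 and 1713 bases in Nop58, 10012 and 3251 in Wdr12, 8202 and 3072 in Ncl. Their length class depends on how counts were divided between such transcripts. All lengths are means weighted by estimated transcript counts. The fits with a length trend removed used the exon length of the gene, which is another measure. The part of this transcript length trend in single genes was not tested.

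**Figure D5:**
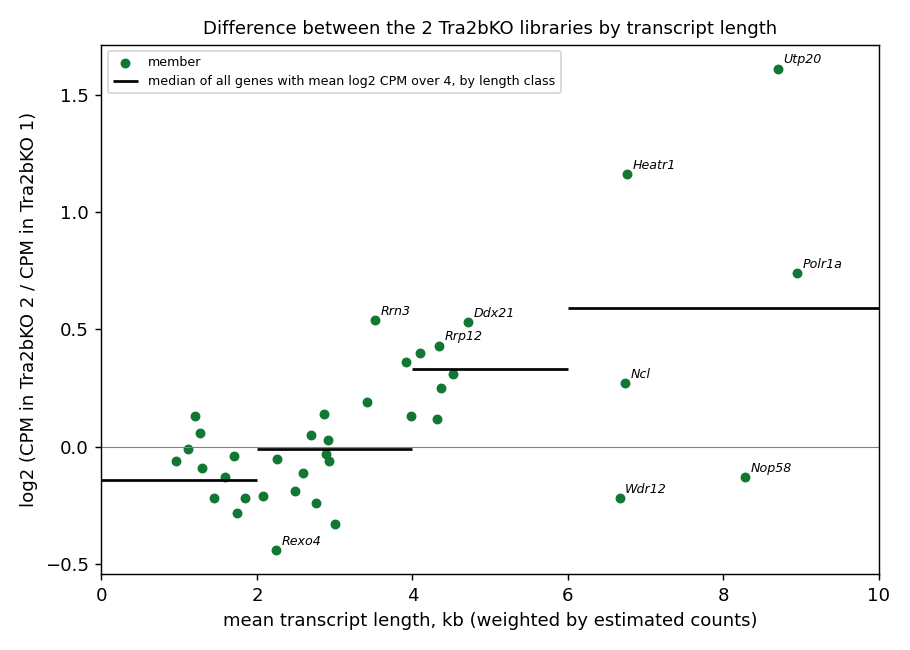
Each point is 1 of the 38 genes, with mean transcript length in kb on the horizontal axis and the log2 ratio of Tra2bKO 2 to Tra2bKO 1 on the vertical axis; black lines are medians of all abundant genes by length class. Utp20 at 1.61, Heatr1 at 1.16 and Polr1a at 0.74 are the highest, and the medians rise from -0.14 to 0.59.

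By ranges, 12 of the 38 genes had both Tra2bKO libraries below every control, against 11.6% of all genes and 18.6% of abundant genes. They were Nop58, Gar1, Nhp2, Gnl3, Polr1b, Polr1e, Rrp9, Wdr12, Bop1, Ebna1bp2, Ddx18 and Rexo4. The reverse held for 0 of the 38 and for 10.2% of all genes. Of this group Gar1 stood at 65 and 67.6 CPM against 72.2 to 96.8 in controls (log2 fold change -0.34, SE 0.13, adjusted p = 0.112), and Gnl3 at 88.7 and 75.9 CPM against 95.1 to 127 (-0.40, SE 0.13, adjusted p = 0.0637). Bop1 stood at 232 and 204 CPM against 244 to 307 (-0.29, SE 0.09, adjusted p = 0.0543). Nucleolin did not share this position, at 1349 and 1631 CPM against 1258 to 1695 (0.07, SE 0.13, adjusted p = 0.788), and Npm1, at 947 and 816 CPM, had an adjusted p of 0.55.

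Among the 124 other ribosome biogenesis genes, 2 were higher (1.61%) and 14 lower (11.3%) in Tra2bKO libraries, with a median log2 fold change of -0.07. Over all genes tested the shares were 7.62% and 7.24%, and over abundant genes 11.3% and 11.5%. The share called lower is thus near that of abundant genes. Exosc8, an exosome subunit, was lower at 161 ± 16.4 CPM (SD, n = 2) against 263 ± 11.4 CPM (SD, n = 8), -0.70 on the log2 scale (SE 0.07, adjusted p = 0.000184). Gnl2, a GTPase of large subunit assembly, fell to 56.3 ± 2.06 CPM from 96.9 ± 10.5 CPM (-0.78, SE 0.11, adjusted p = 0.00133). The small subunit factors Tsr3 (-0.46, SE 0.09) and Mphosph10 (-0.44, SE 0.09) were also lower. Urb1 (0.63, SE 0.19) and Noc3l (0.59, SE 0.18) were higher, and in both 1 of the 2 Tra2bKO libraries stood within the control range. Myc stood at 79.4 to 86.6 CPM in Tra2bKO libraries against 95 to 130 CPM in controls (-0.45, SE 0.12, adjusted p = 0.0239).

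Some markers of other cells moved with the Tra2bKO group. All 5 erythroid markers were higher, with sums of 13.4 and 132 CPM against 0.443 to 17.3 CPM in controls. The 9 B cell markers summed to 641 to 811 CPM against 377 to 464 CPM, with 1 of 8 tested higher. Dendritic and myeloid markers summed to 82.5 to 96.3 CPM, NK cell markers to 4.57 to 6.67 CPM and CD4 T cell markers to 2.24 to 2.73 CPM. The part of these cells in the differences above was not tested.

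Set against naive libraries instead, 26 of the 38 genes were higher in Tra2bKO libraries and 3 were lower (68.4% and 7.89%). The shares were 21.1% and 23.6% of the 19776 genes tested, and 39.1% and 22.9% of abundant genes. The median log2 fold change was 0.31 for the 38 genes, -0.08 for all genes and 0.15 for abundant genes. This comparison shares its Tra2bKO libraries with the one before and its naive libraries with the first. Nucleolin was 1349 and 1631 CPM against 681 to 914 in naive libraries (0.93, SE 0.10, adjusted p = 2.3e-05). Gar1 was 65 and 67.6 CPM against 35.4 to 54 (0.57, SE 0.14, adjusted p = 0.00451), and Fbl 180 and 197 CPM against 123 to 146 (0.51, SE 0.07, adjusted p = 0.000112). The lower genes were Rexo4 (-1.71, SE 0.13, adjusted p = 1.34e-06), Gnl3 (-0.34, SE 0.09, adjusted p = 0.00899) and Polr1b (-0.33, SE 0.12, adjusted p = 0.0375). Without Tra2bKO 2, which leaves 1 library in that group, Gnl3 stood at -0.22 and Polr1b at -0.37 on the log2 scale. The call of Polr1b was lost without naive library 3 (-0.32, adjusted p = 0.0573).

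Transcript types were examined because Tra2b regulates splicing. The share of a gene's counts in annotated retained-intron or nonsense-mediated-decay transcripts could be described for 29 of the 38 genes, those with such transcripts and at least 50 counts in every library. Its median over these genes was 2.57% in naive, 1.12% in control and 1.66% in Tra2bKO libraries, against 4.37, 2.55 and 2.56% over 6766 genes. Controls lay below naive libraries without overlap in 4 of 29 genes (Bop1, Fbl, Rrn3 and Utp15), against 15.6% of all genes, and above in 0, against 0.355%. Tra2bKO libraries lay above controls without overlap in 3 of 29 (Dkc1, Nhp2 and Wdr12), against 6.95%, and below in 0, against 2.39%. These counts are near the background and are no result about the members. Nhp2 had the largest such share among the genes just named: 35.3 ± 1.7% in controls (SD, n = 8) and 40.1% in both Tra2bKO libraries.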

How the data were processed

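Gene and transcript counts of 18 libraries were used as deposited. The values are estimated counts, whole numbers per gene or transcript, and the submitters' processing notes name StringTie 2.1.0, the aligner STAR 2.7.1a, SAMtools 1.9, and DESeq2 1.30.1 in R 4.0.5, with builds mm39 and mm10 given no role. RNA was copied with a polyA low-input kit, per the labels. Of 81881 rows, 26248 with numeric identifiers (0.0513 to 0.132% of counts) name no gene and were left out, and the 97 spike rows were at 0.

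Groups were compared in R 4.3.3 with edgeR 4.0.16 (robust quasi-likelihood test, filterByExpr at a minimum count of 10, TMM, prior count 2), 1 fit per comparison, with Benjamini-Hochberg adjustment over all genes tested and a threshold of 0.05. Every adjusted p in the text comes from these fits unless another tool or setting is named. CPM are TMM-scaled over all 18 libraries, SE refers to a log2 fold change and SD to libraries of a group. The steps were tested on simulated data.

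The members and lists were chosen with earlier results of these data known. Named genes were the 38 members, Myc, Max, Tra2b, marker genes and, of the other ribosome biogenesis genes, the 4 called genes with the smallest p per comparison and direction. Replicate numbers were not used as pairs: between same-numbered naive and control libraries, deviations from the group means correlated at -0.09 to 0.139, and 1 of 8 naive libraries correlated best with the control of its number. Alternatives were DESeq2 1.42.0, voom in limma 3.58.1, RLE factors, total counts, no low-count filter, 1 fit of all libraries, the replicate number as a block, subsets of controls, removal of trends on length and GC content, and leaving out each library.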

Additional observations from a re-analysis of the deposited data

Results flagged for a closer look

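Of 76 sets of 8 values (38 genes in the naive and in the control libraries), 5 had a library farther from its neighbours than Dixon's test allows at the 95% level, and chance gives about 1 in 20. In naive library 2, Dkc1 was lowest at 192 CPM, Gnl3 at 91.7 CPM and Wdr43 at 164 CPM. Nop16 was lowest in naive library 7 at 59.8 CPM. Nhp2 was highest in control library 1 at 292 CPM.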

How the results depend on the processing

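For control against naive, 30 members were called and the alternatives gave 27 to 31, with 29 to 30 when 1 library was left out. The sign turned for Polr1a with the length trend removed (0.20, adjusted p = 0.01) and with the length and GC trend removed (0.24, adjusted p = 0.00211), and for Nop10 in the latter (-0.04, adjusted p = 0.499); the cause was not tested. For Tra2bKO against control, 6 members were called. DESeq2 called 11 (3 higher, 8 lower), all 18 libraries in one fit 10 (3 higher, 7 lower) and voom 1. Over all genes, DESeq2 called 1922 higher and 1850 lower of 18651, and voom 1156 and 691. The fit of all 18 libraries called 1693 and 1289 of 20750. The count was 0 against controls 1 and 2 only, where 7 had an unadjusted p under 0.05. That fit called few genes at all, 5 higher and 0 lower of 16945. Leaving out control 7 lost the calls of Nop58 and Polr1b, and leaving out control 8 those of Heatr1 and Wdr12. Fits without 1 of the Tra2bKO libraries leave 1 in that group. The number called over all genes changed in them too, so their member counts are not compared. For Tra2bKO against naive, 29 members were called and leaving out 1 library gave 15 to 29, the lowest without Tra2bKO 2. Scaling by total counts alone moved the median of all genes there from -0.08 to -0.19 and the split of members from 26 higher and 3 lower to 16 and 4. The replicate block gave 29 members for control against naive. It gave 0 for Tra2bKO against control (11 with an unadjusted p under 0.05) and 3 for Tra2bKO against naive. Over all genes, the block called 0 higher and 0 lower of 18651 for Tra2bKO against control. For Tra2bKO against naive it called 1177 higher and 2145 lower of 19776. These libraries share only a number: same-numbered control and Tra2bKO libraries correlated at 0.079 and 0.127, with 1 of 2 highest at its own number, and 1 of 8 naive libraries correlated best with the control of its own number. The count of 4 genes with a lower share of retained-intron and decay transcripts was the same with 100 counts as the minimum. Standard errors of the members' log2 fold changes were 0.04 to 0.11 for control against naive and 0.08 to 0.28 for Tra2bKO against control, which has 2 Tra2bKO libraries.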
